A study of Mus musculus with 4 samples.

Results

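Of the genes that were at least 2-fold higher with wild-type GATA-1 than without it in the mouse G1E line, 64 stayed high with the mutant GATA-1 2RA but were back near the control level with the mutant GATA-1 V205M. They were chosen by their levels in all 4 groups: GATA-1 WT and GATA-1 2RA each 2 or more times the control, GATA-1 2RA within 2-fold of GATA-1 WT, GATA-1 V205M at or below GATA-1 WT divided by 2 and within 2-fold of the control, and a highest level of 50 or more. The rule was met by 70 genes, of which 6, among them Bcl2l1, Fam46c, Klf6 and Mllt3, were set aside by symbol, leaving 64 of 2982 genes listed in any deposited table. Levels in all 4 groups could be read for 1157 genes, of which 1124 reach 50 in at least 1 group, and the rule was applied to these. Because every group entered the rule, the fold differences among the 64 genes are given as descriptions, and the calls quoted below, from the deposited tables or from edgeR, are no independent evidence of them.

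GATA-1 is the zinc finger transcription factor that red cell precursors need to mature, and it acts on many of its targets together with the cofactor FOG-1 (Zfpm1). V205M is a change in the N-terminal zinc finger known to weaken the contact with FOG-1, while the labels do not say what the 2RA form changes. During maturation, erythroblasts pass their last divisions, remodel or clear their internal membranes and organelles, and condense the nucleus before expelling it. By the roles used here, 14 of the 64 genes act in membrane traffic, the lysosome or autophagy and 8 in mitosis and chromosome segregation. Roles were assigned by hand after the list was known and were not counted over the other genes. Nothing is therefore read from these numbers. Globin, solute carrier, histone and mitochondrially encoded genes were left out by the rule itself.

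The samples are bulk RNA-seq of G1E, an erythroblast line derived from cells that lack Gata1. Each of the 4 groups is 1 sample: the G1E control, and G1E with GATA-1 WT, with GATA-1 2RA or with GATA-1 V205M, all of them induced with β-estradiol. From here on they are called control, WT, 2RA and V205M. The labels give neither how the GATA-1 forms were introduced nor whether a line is 1 clone. With 1 sample a group, no difference has a replicate check, and fewer cells of a type and less RNA per cell cannot be told apart. Levels are the authors' scaled reads, that is, reads divided by a size factor of the library. Recovered reads over the 1157 genes with all 4 levels ranged from 664926 in the control to 1130570 in V205M. The control and V205M levels are each a mean over 2 count columns, which may be cultures or repeat runs of 1 library.

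Gata1 itself had 153, 2652, 1421 and 613 scaled reads (control, WT, 2RA, V205M), so the mutants also differ in how much Gata1 RNA they carry. Esr1, which encodes an estrogen receptor, had 1.83, 58.6, 43.6 and 13.3 in the same order, and was likewise lower in V205M than in the other GATA-1 lines. The part of these differences in the results was not tested. Of 37 erythroid markers, the authors' deposited tables list 21 as raised and 0 as lowered by WT against the control, 0 as higher and 22 as lower when V205M is set against WT, and 0 as higher and 20 as lower when 2RA is. None of the 14 lymphocyte or 16 neutrophil and macrophage markers is listed in any table. The progenitor marker Gata2 had 773, 54.8, 514 and 1316 scaled reads, again in that order, and of 15 progenitor markers 9 are listed as higher in V205M and 7 as higher in 2RA, each against WT. Of 23 mast cell markers, 9 are listed as higher and 1 as lower in V205M than in WT, and 8 as higher and 0 as lower in 2RA than in WT. Over the 13 mast cell markers with all 4 levels, the summed level ran 6428, 440.2, 3931 and 3464. In 2RA most of this sum was Kit (2218) and Srgn (1077), which had 1440 and 4.15 in V205M. Between the mutants the markers split, with 3 listed as higher and 4 as lower in 2RA than in V205M. Higher in V205M were Ms4a2, with 2.14 in 2RA and 383 in V205M, Il1rl1 (42.2 and 882), Tpsab1 (139 and 474) and Hdc (33.6 and 121). By level, Kit and Srgn, given above, were higher in 2RA than in V205M. So were Alox5, with 136 in 2RA and 38.6 in V205M, Alox5ap (128 and 22.8) and Slc45a3 (148 and 68.5). Not all of these are among the 3 listed. Cpa3 was at 5.0 in 2RA and 14.6 in V205M, far below its 2795 in the control. Of 29 megakaryocyte markers, 5 are listed as higher and 0 as lower in 2RA than in the control. Set against V205M, 7 are listed as higher and 0 as lower in 2RA. In WT against the control 2 are listed as higher and 2 as lower, and in V205M against the control 1 and 6. The share of the markers of these lists in the levels of the 64 genes was not tested. No erythroid, mast cell, megakaryocyte or progenitor marker of the lists is among the 64.

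Relative to the control, the 64 genes had a median log2 difference of 1.82 in WT (middle 50% of genes 1.58 to 2.04), 1.46 in 2RA (1.22 to 1.75) and 0.32 in V205M (-0.02 to 0.52), on log2(scaled reads + 1). Over all 1157 genes with 4 levels the same medians were 0.86, 0.41 and 0.21. Put as a share of the rise from control to WT in scaled reads, 2RA held a median of 74.1% (lowest 37.5% for Kif11, highest 259.6% for Ankrd12). V205M held a median of 8.04%, from -29.0% for 6230427J02Rik to 29.2% for Tax1bp1. The deposited tables list 63 of the 64 as raised by WT over the control, the exception being 6230427J02Rik (8.17% of tested genes are so listed, their number of 12931 being inferred from the p-values). They list 62 as raised by 2RA over the control, all but Nudt18 and Fbxo6 (4.86% of tested genes), and 62 as lower in V205M than in WT, all but Gm14412 and Il4 (5.65%). Since the rule used these contrasts, nothing is read from these shares. The direct comparison of the mutants lists 41 of the 64 as higher in 2RA than in V205M (3.6% of tested genes), and 23, among them Mki67, Kif11, Cat and Riok3, are not listed there.

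**Figure D1:**
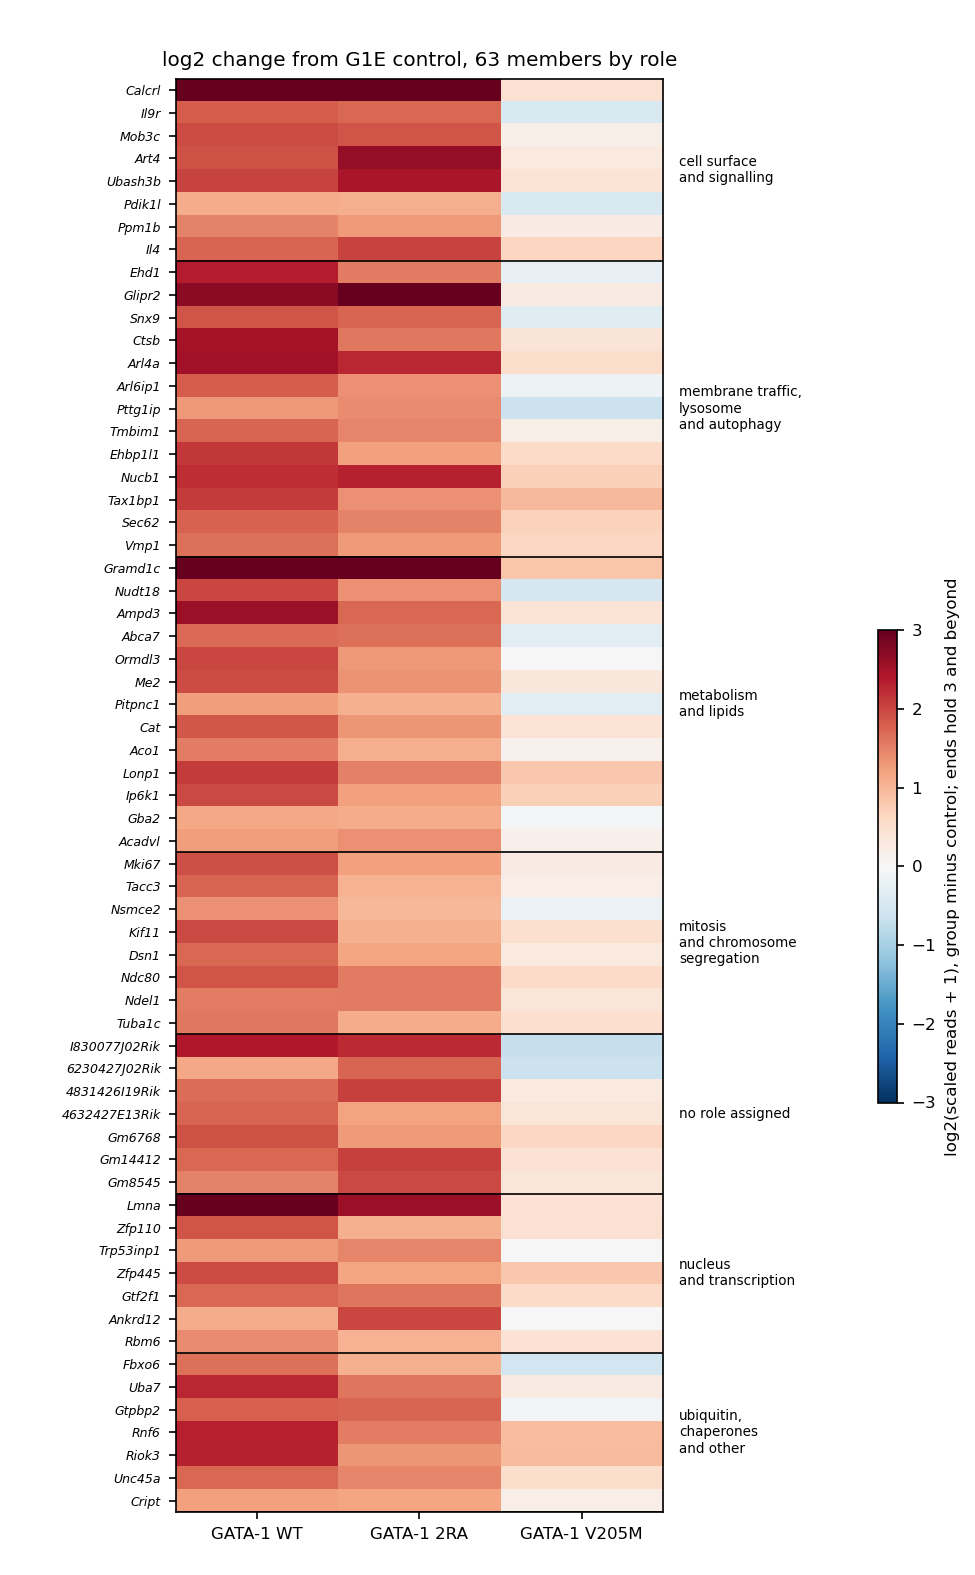
Each row is a gene, for 63 of the 64 genes, and each column 1 GATA-1 form; colour is the difference from the G1E control in log2(scaled reads + 1), with rows grouped by role and values of 3 or more sharing the darkest red. The first 2 columns are red throughout (medians 1.82 and 1.46) and the V205M column is pale (median 0.32), as the rule requires.

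In what follows, 4 values in a row are scaled reads in the order control, WT, 2RA and V205M. A fold carries a 95% interval for counting error only, taken from the pooled reads of each group. Pooling weights the 2 count columns by depth while the level weights them equally, so where the control is involved the interval need not centre on the ratio. Roles were assigned from general knowledge after the list was known.

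The widest gaps between WT and V205M were those of Calcrl, I830077J02Rik and Lmna. Calcrl, a receptor subunit for the peptides CGRP and adrenomedullin, stood at 1.83, 66.8, 55 and 2.86. Only 1 read per count column lies behind the control value, and 2 and 4 reads behind that of V205M, so the ratio of WT to V205M of 23.3-fold (95% counting interval 10.7 to 67) is loosely set. Calcrl was thus near the limit of detection in the control and in V205M, and both of the other forms were far above. Lmna, which encodes lamins A and C of the nuclear envelope, had 189.9, 2160.3, 1132 and 257, with WT 8.4-fold (95% counting interval 7.68 to 9.2) above V205M. The 2 V205M columns of Lmna were 258 and 256, while the 2 control columns were further apart, at 239.8 and 139.9. All 4 of these lie far below the 1132 of 2RA, which in turn was near the lower limit of the rule against WT.

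**Figure D2:**
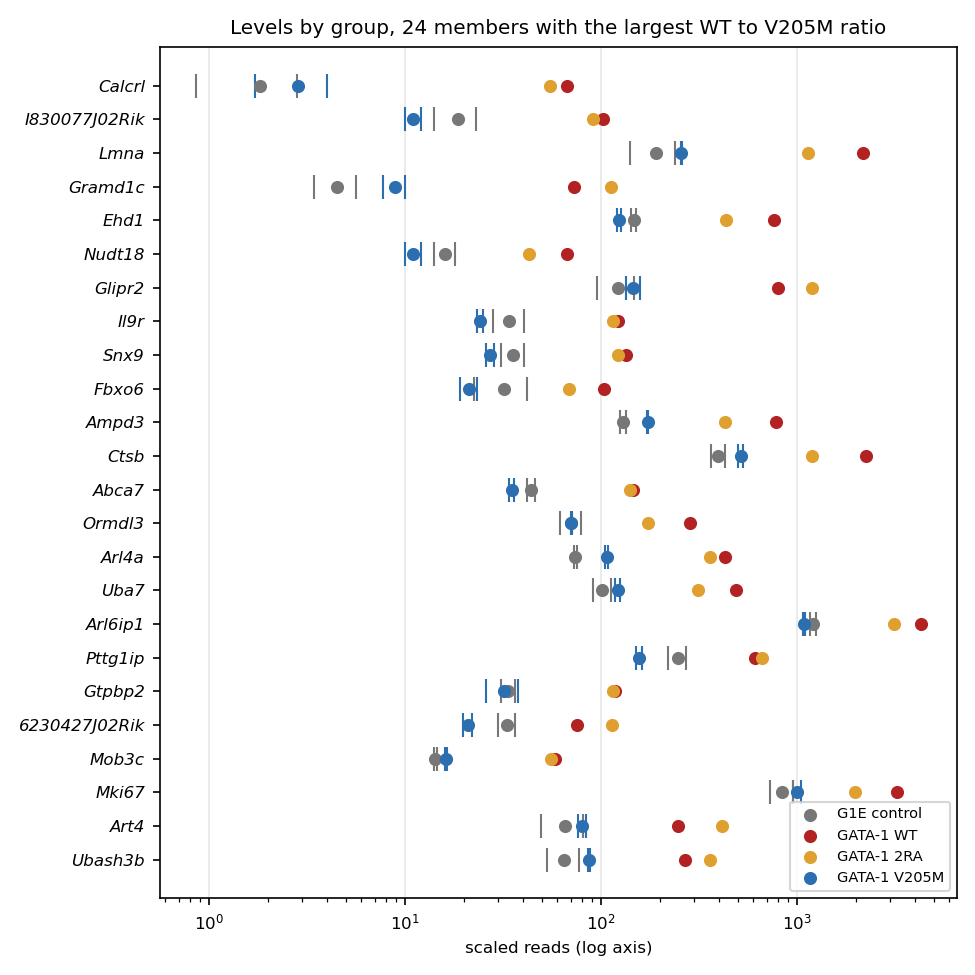
Scaled reads on a log axis for the 24 genes with the largest ratio of WT to V205M; filled points are the 4 groups and short vertical bars are the 2 count columns of G1E control and of V205M. Red and orange points (WT and 2RA) sit to the right of blue and grey ones in each row, from Calcrl at 66.8 and 55.0 against 2.86 and 1.83 down to Ubash3b at 268 and 361 against 86.9 and 65.1.

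Among the other surface and signalling genes, Il9r, the receptor chain for interleukin 9, had 34.1, 122, 115 and 24.1, and its ratio of WT to V205M was 5.06-fold (95% counting interval 3.72 to 7.04). Art4, the ADP-ribosyltransferase family protein that carries the Dombrock blood group, had 65.4, 248, 414 and 80.3. Ubash3b, a phosphatase that dampens tyrosine kinase signalling, had 65.1, 268, 361 and 86.9. Both Art4 and Ubash3b were higher in 2RA than in WT, by 1.67-fold (95% counting interval 1.47 to 1.9) and 1.35-fold (95% counting interval 1.18 to 1.54). Mob3c, of the MOB family of kinase regulators, had 14.3, 57.9, 55.7 and 16.2, the lowest peak level of the 64. The kinase gene Pdik1l had 140.5, 305, 301 and 102, with V205M under the control. The cytokine Il4 and the phosphatase Ppm1b complete the 8 genes of this role, whose log2 difference between V205M and WT ran from -4.13 to -1.11 (median -1.61).

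Membrane traffic, the lysosome and autophagy made up the largest role, with 14 genes and a median log2 difference of V205M from WT of -1.77 (-2.61 to -1.04). Ehd1, an ATPase of endocytic recycling, had 147, 759.6, 435 and 124, and WT was 6.14-fold (95% counting interval 5.38 to 7.05) above V205M. Glipr2, a Golgi-associated protein that binds the autophagy factor Beclin 1, had 122, 799, 1193 and 146, and was higher in 2RA than in WT by 1.49-fold (95% counting interval 1.39 to 1.61). Snx9, a sorting nexin of endocytosis, had 35.5, 135, 121 and 27.2. In Ehd1 and Snx9 the V205M level was below that of the control, in Glipr2 above it. Ctsb, the lysosomal protease cathepsin B, had 397, 2238, 1190.2 and 517, with a WT to V205M ratio of 4.33-fold (95% counting interval 4.05 to 4.64). Arl6ip1, which shapes the endoplasmic reticulum, had 1209, 4281, 3113 and 1086, and Arl4a, a small GTPase of the ARF-like family, had 74.1, 428, 360.1 and 107. Per kilobase of exon, Arl6ip1 was the most abundant of the 63 genes with a length in each group, at 1725 scaled reads per kb in WT against a median of 72.8, and at 437 in V205M against a median of 26.4.

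Pttg1ip, which binds the securin protein, had 247, 609, 663 and 156, and its V205M to control ratio of 0.634 (95% counting interval 0.519 to 0.698) was among the lowest of the 64. Nucb1, a calcium-binding protein of the Golgi, had 312, 1448, 1539 and 511, and its levels in WT and 2RA were close together. Ehbp1l1, an EH domain-binding protein of vesicle transport, had 96.2, 425, 229 and 144, and its 2RA to V205M ratio was only 1.59-fold (95% counting interval 1.35 to 1.86). Tmbim1, a membrane protein of endosomes and lysosomes, had 44.1, 151, 123 and 49.8. The 2 V205M columns differed by more than 1.5-fold in 3 of the 64 genes: Tmbim1 (63.6 and 36.1), Calcrl (1.72 and 4.01) and 4632427E13Rik (47.3 and 75.1). The role also held Sec62 of the endoplasmic reticulum translocation machinery and the autophagy genes Tax1bp1 and Vmp1, whose V205M levels kept between 24.9% and 29.2% of the rise seen with WT.

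The 13 genes of metabolism and lipids had a median log2 difference of V205M from WT of -1.59 (-2.89 to -1.10). Gramd1c, of a family of sterol transfer proteins, had 4.51, 72.4, 113 and 8.88; its control value rests on 4 and 2 reads, and WT exceeded V205M by 8.16-fold (95% counting interval 5.04 to 14.2). Ampd3, the AMP deaminase of red cells, had 129.7, 779.7, 429 and 173, and its ratio of WT to V205M was 4.51-fold (95% counting interval 4.01 to 5.07). For Ampd3, 2RA held 46.1% of the rise and V205M 6.64%. Nudt18, a hydrolase of oxidised nucleotides, had 16, 67.4, 42.9 and 11. Abca7, a lipid transporter, had 44.1, 146, 140.0 and 35.1, and Ormdl3, a regulator of sphingolipid synthesis, had 70.2, 285, 174 and 70.7. For Abca7 the WT and 2RA levels differed by less than counting error, with a 2RA to WT ratio of 0.958 (95% counting interval 0.788 to 1.16).

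Me2, the mitochondrial malic enzyme, had 206, 804, 529 and 262, and Pitpnc1, a phosphatidylinositol transfer protein, had 199, 475, 415 and 157. Cat, the catalase that protects red cells from hydrogen peroxide, had 392, 1424, 979 and 524, with WT 2.72-fold (95% counting interval 2.53 to 2.92) above V205M. Aco1, the cytosolic aconitase that doubles as the iron-sensing RNA-binding protein IRP1, had 116, 338, 246 and 127. In both Cat and Aco1, 2RA lay between WT and V205M, holding 56.8% and 58.7% of the rise. The remaining 4 genes were the mitochondrial protease Lonp1, the fatty acid oxidation enzyme Acadvl, the glucosylceramidase Gba2 and the inositol phosphate kinase Ip6k1. Aco1 is the only 1 of 31 heme and iron genes, and Cat and Riok3 are the only 2 of 44 late erythroid maturation genes, among the 64. Bcl2l1, also on the late erythroid list, met the rule at 97.1, 411, 438 and 121 but was set aside by symbol. Of these 2 lists, the deposited tables give 17 and 21 genes as higher in WT than in the control, and 15 and 15 as lower in 2RA than in WT.

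Genes of mitosis and chromosome segregation numbered 8, with a median log2 difference of -1.45 (-1.70 to -1.09) between V205M and WT. Mki67, the proliferation antigen that coats mitotic chromosomes, had 843, 3245, 1970.4 and 1001, with WT 3.24-fold (95% counting interval 3.07 to 3.4) above V205M. Kif11, the kinesin that drives spindle poles apart, had 272, 1069, 571 and 383. Tacc3, which stabilises spindle microtubules, had 217, 732, 446 and 248. In all 3 of these the order was the same: WT highest, 2RA next, then V205M and the control. Dsn1, a kinetochore subunit, had 102, 338, 235 and 126, and Nsmce2, a SUMO ligase of the SMC5/6 complex, had 106, 276, 213 and 94.2. The kinetochore gene Ndc80, the dynein regulator Ndel1 and the tubulin gene Tuba1c make up the rest, and Tuba1c has close paralogs between which reads may be split. 2RA was below WT in 7 of the 8 genes (median log2 difference -0.50), also when levels were rescaled by median ratios over the 1157 genes, and the highest difference was 0.01, for Ndel1. Of 35 cell cycle genes, Mki67 is the only 1 among the 64, while the deposited tables give 13 as higher in WT than in the control and 11 as lower in V205M than in WT.

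Besides Lmna, the nucleus and transcription role held 6 genes. Zfp110, a zinc finger protein, had 91.5, 343, 194 and 127. Zfp445, a KRAB zinc finger protein, Gtf2f1, a subunit of the general factor TFIIF, Ankrd12, an ankyrin repeat protein, Rbm6, an RNA-binding protein, and Trp53inp1, a p53-induced gene, had WT to V205M ratios between 2.00 and 2.47. Ankrd12 had the largest excess of 2RA over WT of all 64 genes, at 1.86-fold (95% counting interval 1.58 to 2.19).

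The 7 genes of the ubiquitin, chaperone and remaining roles were all lower in 2RA than in WT (median log2 difference -0.59), or 5 of 7 after that rescaling. Fbxo6, an F-box protein that recognises glycoproteins, had 32.2, 104, 68.6 and 21.1, and Uba7, the activating enzyme for the ubiquitin-like ISG15, had 101, 487, 313 and 122. Gtpbp2, a GTPase of ribosome rescue, had 33.6, 118, 116 and 31.9, and the ubiquitin ligase gene Rnf6 had 93.9, 474, 276 and 178. Riok3, a kinase needed for erythroblast enucleation, had 141, 702, 356 and 275. Riok3 was the gene nearest to the lower limit for 2RA against WT, with a ratio of 0.507 (95% counting interval 0.455 to 0.564), and 2RA was only 1.29-fold (95% counting interval 1.15 to 1.47) above V205M, a margin nearly the same as the narrowest of the 64, that of Zfp445, with 1.29-fold (95% counting interval 1.12 to 1.49). The myosin chaperone Unc45a and Cript, a PDZ-binding protein, were the other two.

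No role was assigned to 7 genes. I830077J02Rik had 18.6, 102, 90.7 and 11, with WT 9.25-fold (95% counting interval 5.96 to 14.8) above V205M, second only to Calcrl in that ratio. 6230427J02Rik, which is listed as Inka1 in GENCODE, had 33.2, 75.6, 114 and 20.9, and 4831426I19Rik had 28.2, 92, 121 and 34.6. The others were 4632427E13Rik, annotated as a noncoding RNA from a shared promoter, the zinc finger family gene Gm14412, and the processed pseudogenes Gm6768 and Gm8545. Reads of pseudogenes and of multicopy genes may come from their near-identical copies, so their values are uncertain.

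The 2RA level exceeded that of WT in 15 genes and was lower in 49, a split that became 26 and 38 after the median-ratio rescaling. The counting interval of the ratio lay above 1 in 9 genes, below 1 in 36 and held 1 in 19. Members above WT by the widest margins were Ankrd12, Art4, Gramd1c, Glipr2 and 6230427J02Rik. The authors' tables list 0 of the 64 as differing between 2RA and WT (3.33% of tested genes are listed as higher and 4.04% as lower), as follows from the 2-fold limits of the rule. With edgeR's quasi-likelihood test on the recovered reads (Benjamini-Hochberg adjusted p below 0.05), 8 of the 64 were called higher and 32 lower in 2RA than in WT, beside 37.9% and 43.8% of the 1157 genes fitted. Its spread comes from the count columns of 2 groups, which may be runs of 1 sample, so these calls compare libraries and not conditions.

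**Figure D3:**
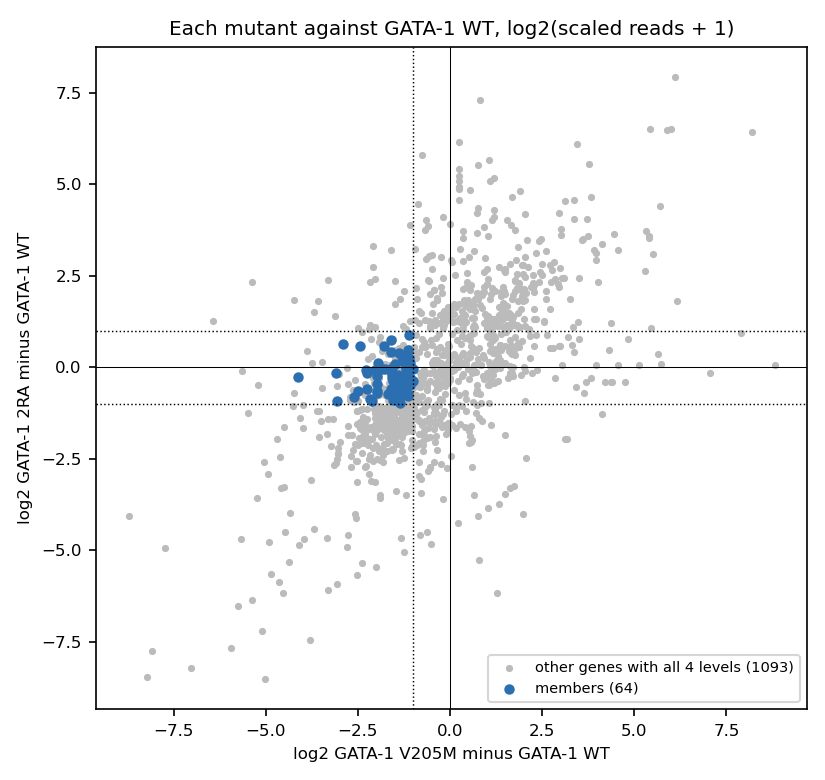
Each point is a gene with all 4 levels, placed by V205M minus WT (x axis) and 2RA minus WT (y axis) in log2(scaled reads + 1); blue points are the 64 genes, grey points the remaining genes of the 1157, and dotted lines mark 2-fold. Both axes share WT, and the band that holds the blue points, left of -1 and between -1 and 1, is set by the rule.

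V205M was above the control in 46 genes and below it in 18, or in 39 and 25 after the same rescaling. The counting interval of that ratio lay above 1 in 31 genes, held 1 in 25 and lay below 1 in 8. None of the 64 is listed as differing between V205M and the control (4.83% of tested genes are listed as higher and 3.32% as lower), which the rule's 2-fold limits again fix. With edgeR's test on the recovered reads, 28 were called higher and 6 lower, beside 44.9% and 34% of the genes fitted. The rule limits this contrast, so nothing is read from these shares. The same test called 64 of 64 higher in 2RA than in V205M, beside 45.4% of the genes fitted, a contrast that the rule used.

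The 2 count columns of a group belong to 1 sample as labelled and were used by the rule through their mean. In V205M they differed by 1.5-fold or less in 61 of the 64 genes, and in the control, where the second column is shallow, in 54. The higher V205M column was below both WT and 2RA in 64 of 64 genes, and so was the higher control column. The rule limits the means of these columns against WT and 2RA, so nothing is read from such counts. Both V205M columns were at or below WT divided by 2 in 60 genes. The exceptions were Vmp1, Cript and Rbm6, with WT to V205M ratios of 2.06, 2.04 and 2.00, and Unc45a. Unc45a had a ratio of 2.31, and its V205M columns were 44.7 and 61.1. The ranges of the V205M and control columns overlapped in 18 genes.

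**Figure D4:**
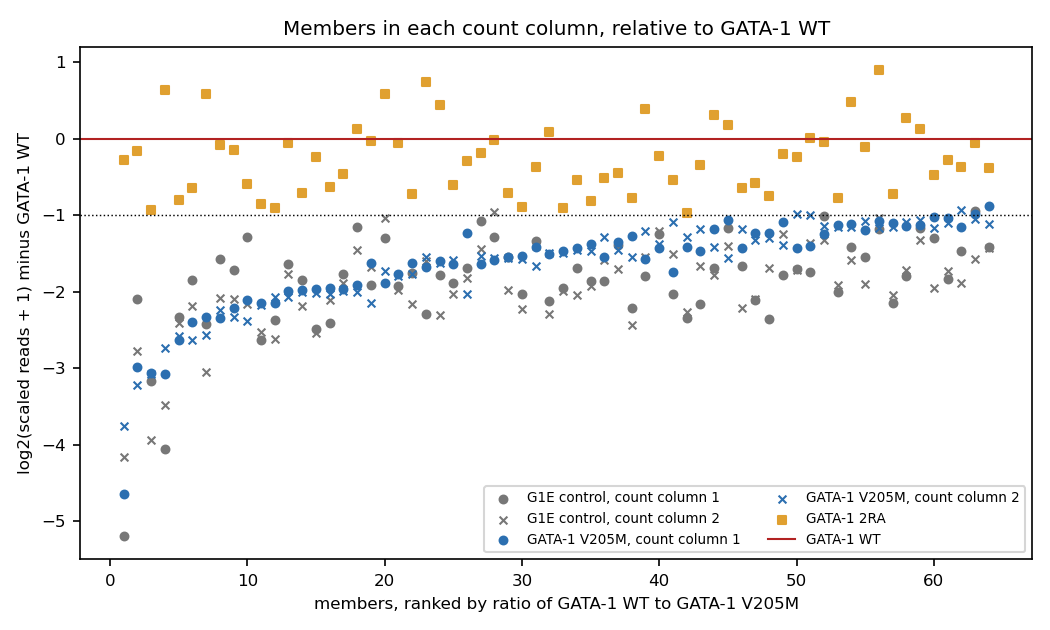
For each of the 64 genes, ranked by the ratio of WT to V205M, the plot gives each count column of G1E control (grey) and V205M (blue) and the 2RA level (orange squares) as log2(scaled reads + 1) minus WT; the dotted line marks 2-fold below WT. Blue and grey symbols lie mostly below the line, and their ranges overlap in 18 genes. Orange squares stay above the line, and the 2 blue symbols of a gene mostly lie close together (1.5-fold or less in 61 genes).

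At most limits of the rule, some genes just outside had nearly the same values as genes inside. For the ratio of WT to V205M, Rbm6 (2.00) and Cript (2.04) were just inside, and Taok3 (1.99) and Ctnna1 (1.79) failed on this limit alone. For V205M against the control, Gramd1c (1.97) and Tax1bp1 (1.96) were just inside, and Hbp1 (2.01) and Itgb2 (2.01) were nearest outside among 36 genes that failed this limit alone. For 2RA against WT, Riok3 (0.507) and Lmna (0.524) were inside at the lower end, with Pcmtd2 (0.479) and Nudt9 (0.477) outside, and Ankrd12 (1.86) and Art4 (1.67) at the upper end, with Plekha2 (2.07) and Elf1 (2.22) outside. The rise with WT was 2.17-fold for Ankrd12 and Pdik1l inside and 1.98-fold for Add3 and 1.93-fold for Mapre1 outside, and that with 2RA was 2.01-fold for Nsmce2 inside and 1.98-fold for Birc2 and 1.84-fold for Samd14 outside. At the lower limit for V205M against the control, I830077J02Rik (0.594) and 6230427J02Rik (0.630) were inside, and Pim1 (0.345) and Ssh1 (0.341) outside. The lowest peak levels were those of Mob3c (57.9) and Calcrl (66.8), and no gene failed on the minimum of 50 alone.

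Applied with the mutants exchanged, the same conditions gave 45 genes lost only in 2RA, beside 119 lost in both mutants and 103 kept by both. These were drawn from 530 genes raised by WT, with the same symbols set aside. Only genes with a level in all 4 groups could be sorted in this way. The deposited tables list 1057 genes as higher in WT than in the control, so the counts are not shares of all such genes. The rest of the 530 genes met none of these sets of conditions, and not all of them lay between the limits. For example, the V205M level was 0.345 of the control for Pim1 and 0.341 for Ssh1. The 2RA level of Elf1 was 2.22 times that of WT.

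By position, 63 of the 64 genes could be placed on GRCm38 through GENCODE M21 symbols or synonyms, on 18 chromosomes, with 60 of them protein coding. Chromosome 17 held 8 genes and chromosomes 4, 7 and 11 held 7 each. On chromosome 9, 4 genes lie close together: Rbm6 (107773559 to 107873237), Uba7 (107975505 to 107984060), 6230427J02Rik (107984223 to 107985879) and Ip6k1 (108002501 to 108048782). Uba7 and 6230427J02Rik are only 162 bases apart and lie on opposite strands with their ends facing. Lmna lies on chromosome 3 at 88480147 to 88509956, Calcrl on chromosome 2 at 84330626 to 84425411 and Mki67 on chromosome 7 at 135689784 to 135716361. Exons of 8 genes share 50 or more bases with another gene: Acadvl with Dvl2, Ampd3 with Rnf141, Ctsb with Fdft1, Gba2 with Creb3 and Rgp1, Sec62 with 4933429H19Rik and Tacc3 with Tmem129 on the opposite strand, and Uba7 with Gm20661 and Ip6k1 with Gm20662 on the same strand. The sources used here do not say whether counting used strand, so reads from such pairs cannot be told apart.

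Promoter sequence was not used by the rule. RefSeq promoters (GRCm38.p6, 250 bases before to 50 after a start site) were found for 51 of the 64 genes, in 70 windows. The GATA words searched on either strand were AGATAA, its form with a final G (AGATAG), its form with a first T (TGATAA) and the form with both of these changes (TGATAG). They occur in 13 of the 70 windows (18.6%, 95% exact binomial interval 10.3% to 29.7%), beside 29.8% of all 32851 windows and 22.6% of the windows of genes with all 4 levels and a maximum of 50. Some genes have more than 1 window, and the interval takes windows as independent. Counted by gene, the words occur in 12 of 51 (23.5%, 95% exact binomial interval 12.8% to 37.5%). The same share is 33.0% of all genes and 27.3% of genes with all 4 levels and a maximum of 50. AGATAA alone, which is one of these 4 words, occurs in 11.4% of the windows and in 11.2% of all windows. Among windows of genes with all 4 levels and a maximum of 50 it occurs in 9.68%. The E-box CACGTG occurs in 12.9% of the windows, against 7.15% of all windows and 9.86% of those of genes with all 4 levels and a maximum of 50. The box CCAAT occurs in 28 of the 70 windows (40%), beside 37.4% of all and 41.7% of those of genes with all 4 levels and a maximum of 50. The word CACACCC occurs in 7 of the 70 (10%), beside 7.95% and 9.50% in the same order. A match is a description of letters, and binding was not measured. The promoters of 5 genes that hold 2 or more GATA words upstream of the start site, and there touch no annotated exon, are shown to let a reader see where these words lie. Gramd1c has 4 such words and Ampd3, Il9r, Ubash3b and Zfp445 have 2 each. Capitals mark the GATA words, which read as their reverse complement (TTATCT for the first word) when they lie on the other strand, and each stretch is given 5′ to 3′ in the direction of the gene.
Gramd1c (chr16:44042052-44042206, minus strand): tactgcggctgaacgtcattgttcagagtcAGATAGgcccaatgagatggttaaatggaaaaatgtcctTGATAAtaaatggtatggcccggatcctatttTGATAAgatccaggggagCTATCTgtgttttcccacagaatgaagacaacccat
Ampd3 (chr7:110773533-110773635, plus strand): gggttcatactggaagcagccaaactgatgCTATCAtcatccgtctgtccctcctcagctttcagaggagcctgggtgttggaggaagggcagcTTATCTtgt
Il9r (chr11:32200280-32200529, minus strand): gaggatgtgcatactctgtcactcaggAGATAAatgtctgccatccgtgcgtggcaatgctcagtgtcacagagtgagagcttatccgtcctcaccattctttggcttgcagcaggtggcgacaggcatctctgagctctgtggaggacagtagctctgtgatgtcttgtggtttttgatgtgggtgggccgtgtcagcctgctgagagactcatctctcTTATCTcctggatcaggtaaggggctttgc
Ubash3b (chr9:41079562-41079711, minus strand): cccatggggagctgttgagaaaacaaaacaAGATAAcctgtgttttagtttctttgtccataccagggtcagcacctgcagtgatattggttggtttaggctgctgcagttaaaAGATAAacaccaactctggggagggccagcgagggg
Zfp445 (chr9:122866007-122866188, minus strand): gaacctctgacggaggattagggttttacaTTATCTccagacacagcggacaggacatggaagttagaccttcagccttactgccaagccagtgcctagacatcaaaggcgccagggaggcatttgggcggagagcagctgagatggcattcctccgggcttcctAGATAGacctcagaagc
The Gramd1c stretch covers bases -198 to -44 from a RefSeq start site, Ampd3 -103 to -1, Il9r -250 to -1, Ubash3b -205 to -56 and Zfp445 -182 to -1. Those of Gramd1c, Ampd3 and Ubash3b lie inside the GENCODE gene, in introns ahead of a start site within it, and those of Il9r and Zfp445 lie outside any protein-coding gene. The 5 genes differ in their values: Gramd1c and Ubash3b were higher in 2RA than in WT, Ampd3 and Zfp445 lower, and Il9r was below the control in V205M.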

How the data were processed

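Per the labels, total RNA of 4 samples, 1 a group, was made into libraries with a TruSeq RNA kit. The submitters' processing notes name the mm10 build and, with no role, TopHat, Cufflinks, Cuffdiff and deepTools. The sources used here do not say which tool made the 6 deposited tables, or with which version or annotation. Per the file headers, the deposited signal is a base mean, which the values show to be reads divided by size factors and averaged over a group's count columns. Each deposited fold divides one such mean by another. The deposited log2 column is the logarithm of that fold. The deposited p-value comes with an adjusted value, below 0.01 in each row, and the authors kept changes above 2-fold. The sources used here do not name their test. The number of genes tested, 12931, was inferred as the largest ratio of adjusted to raw p-value over the 6 tables. That 1 number was used for each comparison. Tables agreed on a gene's level to within rounding.

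Whole reads were recovered as multiples of 1 step (GATA-1 WT and GATA-1 2RA, 100% of values within 0.01 of a whole read) or of 2 steps (G1E control 100%, GATA-1 V205M 99.96% of values, each with 1 solution). Log2 values used a pseudocount of 1. Intervals are exact (Clopper-Pearson, 95%) on pooled reads and cover counting error only. edgeR 4.0.16 (R 4.3.3), tested on simulated data, fitted 1157 genes in 6 count columns with the recovered size factors and called a Benjamini-Hochberg adjusted p below 0.05. At that limit it called 624 genes higher and 403 lower for GATA-1 WT against the control. Python 3.11.15 was used elsewhere.

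The members and lists were chosen with earlier results of these data known. Of the 64 members, 63 are named, and 1 is not reported here by name. Values are otherwise printed for the 40 with the largest ratio of GATA-1 WT to GATA-1 V205M and for those on a gene list. The plan named up to 4 genes a list, which are given here by counts. The motifs other than GATA were added after the data were seen.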

Additional observations from a re-analysis of the deposited data

Results flagged for a closer look

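In 18 of the 64 genes, V205M was below the control while WT and 2RA were above it, so the single samples of the mutants lay on opposite sides of the control. After rescaling by median ratios the number was 25. The difference was not tested, since each group is 1 sample and the rule used all of these levels. Among the 18 genes were I830077J02Rik, Ehd1, Nudt18, Il9r, Snx9, Fbxo6, Abca7, Arl6ip1, Pttg1ip, Gtpbp2, 6230427J02Rik, Pitpnc1, Pdik1l, Nsmce2, Trp53inp1, Gba2 and Ankrd12. For 8 of them the counting interval of V205M over the control lay below 1, and for 10 it held 1, so that these were not told apart from the control at this depth. Pttg1ip had 247, 609, 663 and 156 scaled reads (control, WT, 2RA, V205M) and a V205M to control ratio of 0.634 (95% counting interval 0.519 to 0.698). Pdik1l had a ratio of 0.728 (95% counting interval 0.638 to 0.943).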

How the results depend on the processing

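The number of genes that met the rule was 64, and it was 38 with a 1.5-fold limit in every condition, 28 with a 3-fold limit and 23 when levels were rescaled by median ratios over the 1157 genes with all 4 levels. Of these, 32, 15 and 14 were among the 64. The rescaling took out 0.77 on the log2 scale between WT and the control and -0.53 between V205M and WT. It is computed over genes that the authors listed for their differences, so a shift between libraries cannot be told apart from those differences and was not tested. Under it the median log2 difference of V205M from WT over the 64 was -0.96 in place of -1.49, with 64 of 64 lower, and genes lost only in 2RA, lost in both and kept by both numbered 27, 63 and 42. V205M was then above the control in 39 and below it in 25 of the 64. With a minimum of 20, 100 or none, or with 1 count column of the control or of V205M alone, 59 to 64 genes met the rule. The 59, from control column 1 alone, held 50 of the 64, and the other single columns kept 59 or 60 of them. At 4-fold, the deposited tables list 21 of the 64 in WT over control, 13 in 2RA over control, 16 in V205M over WT and 12 in 2RA over V205M. The rule used these contrasts and the share of all genes at 4-fold was not counted, so nothing is read from these counts. With edgeR, added after the data were seen, 34 were called in V205M over control, 40 in 2RA over WT and 64 in 2RA over V205M. Depth limits Calcrl and Gramd1c most, whose control values rest on 1 and 1, and 4 and 2 reads. No paired analysis was possible because each group is 1 sample.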
